A study of Homo sapiens with 36 samples.

Results

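Voltage-gated calcium and sodium channels are described here by the genes of their subunits. Of 19014 genes with normalized counts, 24 carried a symbol of a calcium channel alpha1, alpha2delta, beta or gamma subunit (CACNA, CACNB and CACNG names) or of a sodium channel alpha or beta subunit (SCN names), and antisense genes were left out. They were 6 CACNA1, 4 CACNA2D, 4 CACNB and 2 CACNG genes, with 5 SCN alpha and 3 SCN beta genes. The RNA came from H446 cells, a human line derived from small-cell lung cancer and widely used as its NEUROD1-high type. Knockout clones 12, 15 and 2-1, all made with 1 guide RNA against NEUROD1, were set against control clones 3, 10 and 13 with a non-targeting guide RNA. Each clone received 1 µM JQ1 or its solvent DMSO for 24 hours, with 3 libraries per clone and treatment (36 in all). Each line is 1 clone, the knockout clones share 1 guide RNA, and effects of that guide RNA other than on NEUROD1 cannot be told apart from the loss of NEUROD1. JQ1 keeps BET bromodomain proteins off acetylated chromatin.

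The alpha1 subunit of a calcium channel and the alpha subunit of a sodium channel form the pore that opens on depolarization. The alpha2delta and beta subunits of calcium channels, and the beta subunits of sodium channels, bring the pore to the membrane and tune its gating. Neurons and neuroendocrine cells use these channels to fire action potentials and to couple calcium entry to secretion, and small-cell lung cancer cells are known for both. NEUROD1 is a basic helix-loop-helix transcription factor that binds the E-box motif CANNTG.

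Levels are given as DESeq2-normalized counts, which are corrected for library size but not for gene length. Each level is the mean of 3 clones ± SD, and ranges run over the 9 libraries of a group. The test took genes with 10 normalized counts or more in 9 or more of the 36 libraries, which left 15819 genes and 17 of the 24 channel genes. Differences were tested with limma on clone means (3 against 3 clones) and are log2 fold changes with their standard error (SE). A gene was called at a Benjamini-Hochberg adjusted p under 0.05 over all genes tested, and every adjusted p below is from limma unless another tool is named.

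NEUROD1 stood at 0 to 6.60 normalized counts in knockout clones with DMSO, against 5134 to 6523 in control clones. With JQ1 the ranges were 0 to 10.2 in knockout and 5939 to 8692 in control clones. HEXIM1, whose transcript is a marker of BET inhibition, averaged 2643 ± 745 with JQ1 and 716 ± 218 with DMSO in knockout clones, and 2138 ± 170.0 with JQ1 and 459 ± 29.3 with DMSO in control clones. The libraries held 13282337 to 31825795 reads (median 16302452). The 7 neuroendocrine markers include NEUROD1 itself, so part of the gap in their sum between genotypes was set by the knockout. Their sum was 6060 to 8394 in knockout clones with DMSO and 27961 to 33253 in control clones. With JQ1 it was 5823 to 7608 in knockout clones (3438 in the library described next) and 27196 to 34745 in control clones. It moved with genotype, as did the channel genes called between genotypes below, and its part in their differences was not tested. In bulk RNA, fewer cells that express a gene and less RNA per cell cannot be told apart. A single library, replicate 1 of knockout clone 12 with JQ1, stood apart. Its 4 lung epithelial markers in the table summed to 66760, against at most 4.71 in the other knockout libraries with JQ1, and its 3 blood markers to 11944, against 9.41 to 32.3. Its 5 stroma and endothelium markers summed to 66940, against 7920 to 10591, while 3 muscle markers (10.7, against 3.50 to 62.1) and the 1 glial marker (20.9, against 26.8 to 1416) were not above the others. The stroma sum also moved with genotype, at 25515 to 38363 in knockout and 2228 to 9174 in control clones with DMSO. It moved with JQ1 as well, to 7920 to 10591 in knockout clones without that library and 349 to 2164 in control clones, below every DMSO library of the same genotype. Its part in the differences between genotypes and with JQ1 was not tested. Of the 24 channel genes, 15 were above both of its replicates in that library and 5 below both. SCN9A, a pore subunit of sensory neurons, had 362 normalized counts there, against 0.972 and 0 in replicates 2 and 3. The main differences that use this library are also given without it. Among control libraries with JQ1 the lung sum reached 114 at its highest (median 0.981), against at most 9.42 in any library with DMSO. No fit left out that control library alone.

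With DMSO, 5 of the 17 tested channel genes differed between knockout and control clones, 1 higher and 4 lower. Of all genes tested 12.5% differed, 6.32% higher and 6.23% lower. The median log2 fold change of the 17 genes was -0.40, against 0.01 over all genes. With JQ1, 7 of the 17 differed, 2 higher and 5 lower, and also 7 when the library that stood apart was left out. Of all genes 12.0% differed, 6.37% higher and 5.59% lower. The median with JQ1 was -0.80, against 0.01 over all genes. Both treatments showed lower CACNA1B, CACNA2D2, SCN3B and SCN8A and higher CACNA1G in knockout clones. CACNA1G entered the test through knockout libraries alone, and CACNA1B would not have entered it without the control libraries. SCN2A and CACNB4 passed the test with JQ1 only. The response test below bears on whether their genotype differences change with JQ1.

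**Figure D1:**
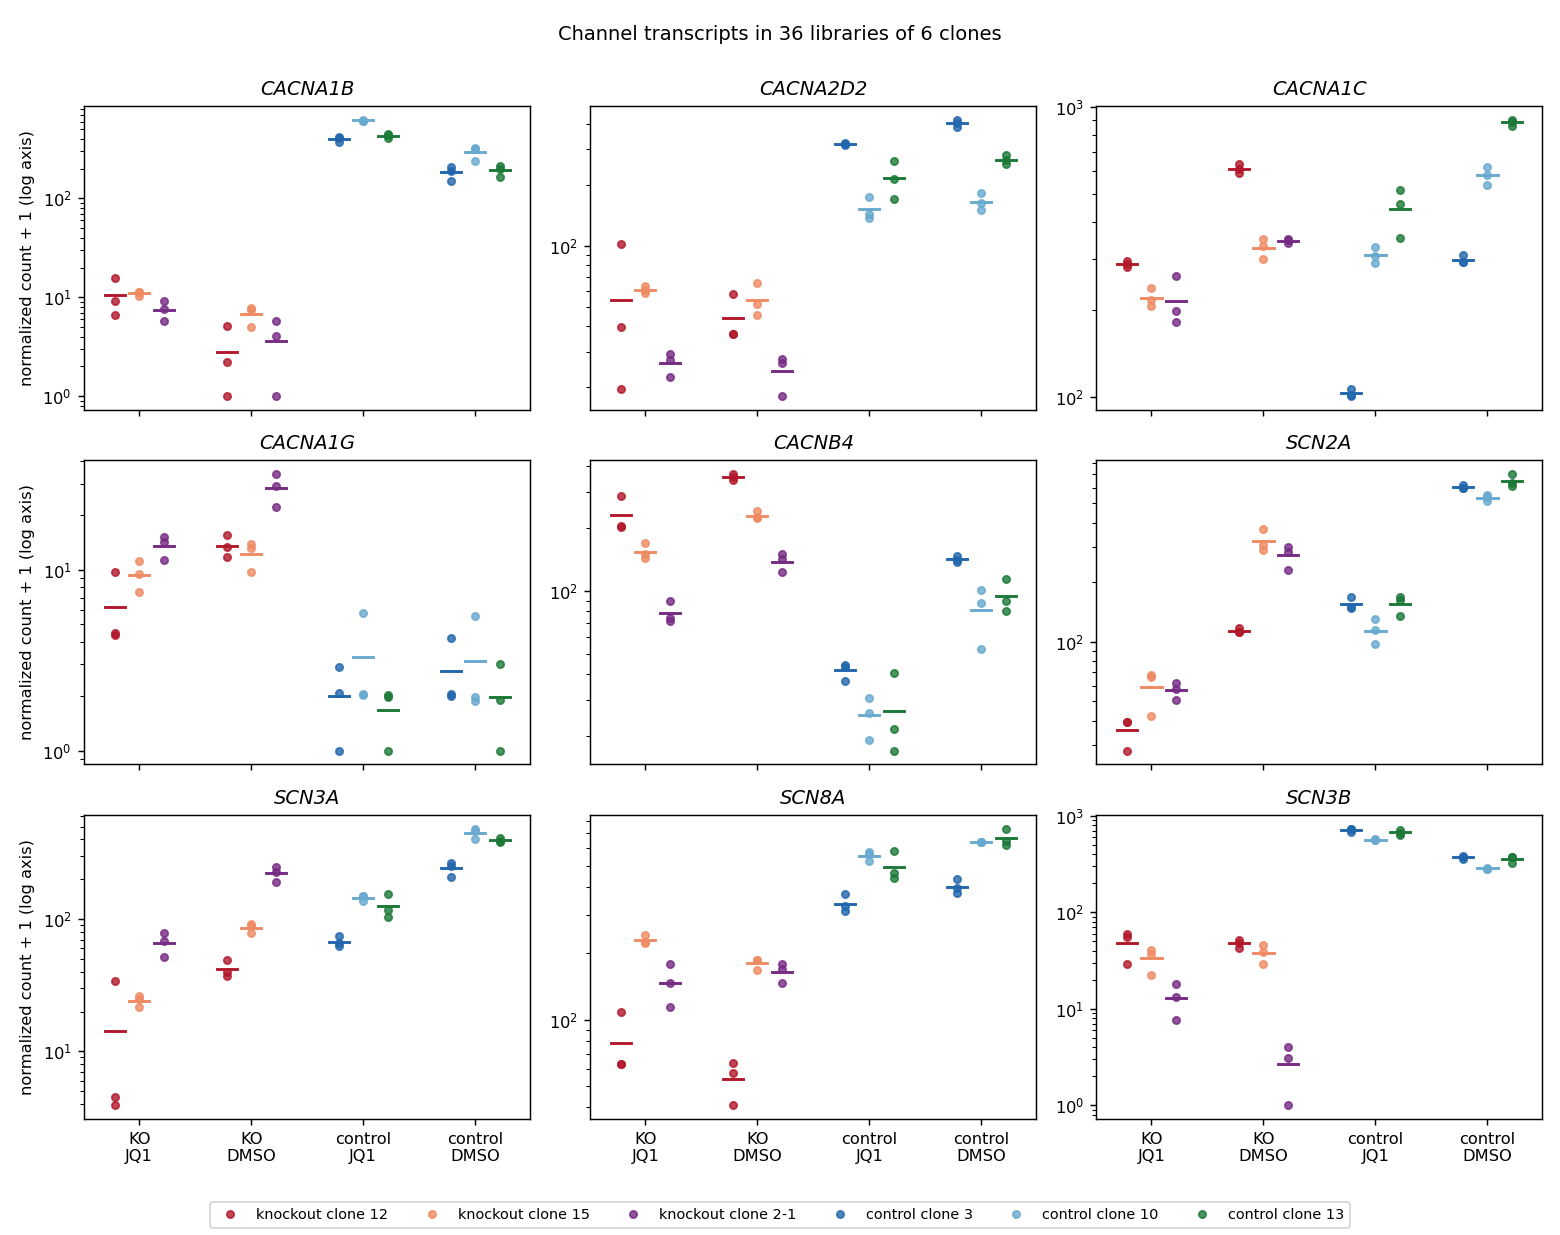
Normalized counts plus 1 (log axis) of 9 channel genes in 36 libraries, by group (knockout with JQ1, knockout with DMSO, control with JQ1, control with DMSO). Points are libraries, horizontal lines are clone means, and colours are the 6 clones. CACNA1B lies at 0 to 14.6 normalized counts in all knockout libraries and at 148 to 627 in all control libraries.

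CACNA1B, the pore of the N-type channel that drives transmitter release at nerve endings, was the channel gene with the largest fall. It had 0 to 6.81 normalized counts in knockout libraries with DMSO (median 4.06), against 148 to 321 in control libraries (median 209). The groups did not overlap, and in knockout libraries the gene rested on 31 reads in all, against 2014 in control libraries. This is a log2 fold change of -5.95 (SE 0.49, adjusted p = 0.000807), and -3.55 on the log2(FPKM + 0.1) scale (adjusted p = 0.00367). Under JQ1 the range was 4.71 to 14.6 in knockout libraries (median 8.17), against 375 to 627 in control libraries (median 434), again without overlap. Its fold change with JQ1 was -5.68 on the log2 scale (SE 0.30, adjusted p = 0.0001), and -5.59 without the library that stood apart.

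CACNA1B was called higher with JQ1 in both genotypes. In knockout clones the mean was 8.64 ± 1.87 with JQ1 and 3.39 ± 2.12 with DMSO, and in control clones 483 ± 117 with JQ1 and 222 ± 60.9 with DMSO. The rise was 1.40 on the log2 scale in knockout (SE 0.26, adjusted p = 0.00256) and 1.13 in control clones (SE 0.26, adjusted p = 0.00734). All 9 control libraries with JQ1 lay above all 9 with DMSO, and the 3 control clones moved by 1.09 to 1.17. Leaving out control clone 3, 10 or 13 gave an adjusted p of 0.0506 to 0.0524 for the rise in control clones. The knockout libraries overlapped, at 4.71 to 14.6 with JQ1 and 0 to 6.81 with DMSO, and on the FPKM scale the call in knockout clones was lost (log2 0.47, adjusted p = 0.233). The response did not pass the test of a difference between genotypes (0.27, SE 0.36, adjusted p = 0.71, and 0.36 without the library that stood apart).

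The 250 bases before the start of CACNA1B in RefSeq (GRCh38.p14, chr9:137877532-137877781, plus strand) are printed because this gene fell most with the loss of NEUROD1. Capitals mark the E-box motif CANNTG, which reads the same on both strands.

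CACNA1B: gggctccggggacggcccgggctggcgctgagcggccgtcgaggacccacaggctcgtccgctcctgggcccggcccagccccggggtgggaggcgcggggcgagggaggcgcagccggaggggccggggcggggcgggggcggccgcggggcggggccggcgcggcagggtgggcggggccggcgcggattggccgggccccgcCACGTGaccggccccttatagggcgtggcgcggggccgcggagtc

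The window is 85.2% G and C, against a median of 58.0% over all 35116 RefSeq windows of this length. Its only CANNTG match is CACGTG, and 61.8% of all windows hold at least 1 CANNTG. Windows were found for 16 of the 24 channel genes (28 windows), and 15 of the 28 hold a CANNTG.

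CACNA1C, the pore of the L-type channel that carries long-lasting calcium current, had the highest level per length of the CACNA1 genes in 3 of the 4 groups. Its knockout libraries with DMSO held 298 to 637 normalized counts (median 348), against 290.3 to 905 in control libraries (median 580.4). The groups overlapped, and the difference did not pass the test (log2 -0.38, SE 0.44, adjusted p = 0.63). JQ1 lowered it. In knockout libraries it had 179.9 to 294 with JQ1 and 298 to 637 with DMSO, without overlap (log2 -0.79, SE 0.14, adjusted p = 0.00239). In control libraries it had 99.6 to 518 with JQ1 and 290.3 to 905 with DMSO (log2 -1.15, SE 0.14, adjusted p = 0.000406). The control libraries overlapped because the clones differ in level, with 102, 307 and 444 in clones 3, 10 and 13 with JQ1 and 296, 580.5 and 885 with DMSO, so that each clone fell. Its upstream window (GRCh38.p14, chr12:2052737-2052986, plus strand) is shown because it holds CATCTG, the reverse complement of the motif CAGATG, which 12.2% of all windows hold on either strand. Of the 28 channel windows, 5 hold it. They belong to CACNA1C, CACNB4 and CACNB2 only, with more than 1 from CACNB2, so they count windows rather than separate genes.

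CACNA1C: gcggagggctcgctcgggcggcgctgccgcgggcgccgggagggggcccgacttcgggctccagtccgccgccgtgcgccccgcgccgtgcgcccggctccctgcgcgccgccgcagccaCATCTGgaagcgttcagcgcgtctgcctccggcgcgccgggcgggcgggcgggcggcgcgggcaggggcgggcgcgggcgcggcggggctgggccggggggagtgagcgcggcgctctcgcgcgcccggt

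The T-type pores open near rest. CACNA1G, one of them, was higher in knockout clones, though low. It reached 10 normalized counts in 12 libraries, all of knockout clones, and so entered the test only through the group where it was high. It had 8.76 to 32.9 normalized counts in knockout libraries with DMSO (median 13.0), against 0 to 4.58 in control libraries (median 1.02). Knockout clone 2-1 was the highest at 27.4, and the groups did not overlap (log2 2.83, SE 0.50, adjusted p = 0.0143). Under JQ1 it had 3.38 to 14.2 in knockout libraries, against 0 to 4.80 in control libraries, which overlapped (log2 2.14, SE 0.55, adjusted p = 0.0495). The call with JQ1 was lost under 13 of 21 alternatives, among them without knockout clone 15 or 2-1 (adjusted p = 0.117 and 0.107) and without control clone 3, 10 or 13 (0.12, 0.101 and 0.135). With DMSO it was lost without control clone 10 or 13 (adjusted p = 0.051 and 0.0522) and with FPKM (log2 1.28, adjusted p = 0.0895), and with JQ1 FPKM gave 0.66 (0.344). CACNA1H, another T-type pore, had 5.04 to 25.4 in knockout libraries with DMSO and 4.25 to 57.0 in control libraries, which overlapped, and passed in none of the 5 comparisons. Without the library that stood apart, its fall with JQ1 in knockout clones passed (log2 -0.90, adjusted p = 0.0484). CACNA1I, the third T-type pore, and CACNA1E, the R-type pore, did not reach the level for a test and had at most 25.9 and 16.9 normalized counts, both in the library that stood apart.

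Among the alpha2delta subunits, which anchor calcium channels at the surface, CACNA2D1 had the highest level per length, and of the pair that reached the level for a test CACNA2D2 was the one called between genotypes. CACNA2D2 had 17.1 to 64.2 normalized counts in knockout libraries with DMSO (median 35.9), against 149 to 418 in control libraries (median 263). The groups did not overlap, and control clone 3 was highest at 402. The difference was -2.78 on the log2 scale (SE 0.44, adjusted p = 0.00985). Under JQ1 it had 18.7 to 101 in knockout and 136 to 321 in control libraries, without overlap (log2 -2.40, SE 0.41, adjusted p = 0.0116). The knockout value of 101 came from the library that stood apart, and without it the log2 fold change was -2.61. CACNA2D2 was not called for JQ1 in either genotype (log2 0.11 in knockout and -0.26 in control clones, adjusted p = 0.479 and 0.117). In knockout clones that value turned to -0.09 without the library that stood apart.

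CACNA2D1 had 2206 to 3075 normalized counts in knockout libraries with DMSO and 2442 to 4183 in control libraries, which overlapped (log2 -0.25, SE 0.20, adjusted p = 0.496). In knockout libraries it had 747 to 2013 with JQ1, against 2206 to 3075 with DMSO, without overlap. This change was -0.77 on the log2 scale (SE 0.10, adjusted p = 0.000393), and -0.61 without the library that stood apart, which gave the value of 747. In control clones the change was -0.22 (SE 0.10, adjusted p = 0.0909), which passed without that library (adjusted p = 0.0314) and without knockout clone 12 (0.0299). The difference in response was -0.55 (SE 0.14, adjusted p = 0.0661), and -0.39 without that library (adjusted p = 0.0537). With JQ1 the knockout libraries (747 to 2013) lay below the control libraries (2071 to 3813), yet the difference between clones did not pass (log2 -0.80, SE 0.22, adjusted p = 0.0613). Without the same library it was -0.64 (adjusted p = 0.124).

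CACNA2D3 and CACNA2D4 did not reach the level for a test. CACNA2D3 was a transcript of 1 clone: knockout clone 12 had 92.1 with DMSO and 28.4 with JQ1, and the other 5 clones had at most 2.92. In a limma fit without the filter, its fall with JQ1 in knockout clones passed (log2 -1.40, SE 0.38, adjusted p = 0.0184). CACNA2D4 had 0 to 5.84 in knockout libraries with DMSO, against 5.32 to 70.2 in control libraries, and in a fit of all 19014 genes without the filter this difference passed (log2 -3.39, adjusted p = 0.0438). In control libraries it had 0 to 5.20 with JQ1, against 5.32 to 70.2 with DMSO, and all 3 control clones were lower with JQ1. In the same limma fit this fall passed (log2 -3.49, adjusted p = 0.0017). The genotype difference with JQ1 did not (log2 -0.18, adjusted p = 0.906, all libraries). Among knockout libraries with JQ1, CACNA2D4 reached 45.1 in the library that stood apart and 1.17 at most in the others.

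The beta subunits bind the pore inside the cell. CACNB4, a beta subunit of cerebellar neurons, was the only 1 of the 17 tested channel genes whose JQ1 response differed between genotypes. Of all genes tested 3.1% differed, 1.55% with a higher and 1.55% with a lower response in knockout clones. In knockout libraries it had 70.4 to 285 normalized counts with JQ1 (median 149), against 122 to 364 with DMSO (median 225). In control libraries it had 16.1 to 43.3 with JQ1 (median 29.7), against 51.5 to 146 with DMSO (median 101), without overlap. Each clone fell, by 0.58 to 0.82 on the log2 scale in the knockout clones and by 1.65 to 1.93 in the control clones. Over the clones the changes were -0.68 in knockout (SE 0.13, adjusted p = 0.00315) and -1.78 in control clones (SE 0.13, adjusted p = 5.17e-05).

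The difference between these CACNB4 responses was 1.11 (SE 0.18, adjusted p = 0.0313), and 1.13 without the library that stood apart (adjusted p = 0.0166). It was lost without knockout clone 15 and without each of the control clones (adjusted p = 0.104 to 0.13), with FPKM (0.205) and with edgeR on summed reads (0.0831). It was also lost without replicate number 2 or 3, and 14 of 22 alternatives kept it. Of all genes tested, 0 passed the response test when any 1 control clone was left out, and 12 passed with edgeR. With JQ1, CACNB4 was higher in knockout clones (log2 2.25, SE 0.45, adjusted p = 0.0211), and its 9 knockout libraries lay above its 9 control libraries. That call was lost without knockout clone 15 (adjusted p = 0.0669) or control clone 10 or 13 (0.0886 and 0.0721), and with FPKM (log2 1.47, adjusted p = 0.0814). With DMSO the libraries overlapped, at 122 to 364 in knockout and 51.5 to 146 in control clones (log2 1.15, SE 0.40, adjusted p = 0.119).

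CACNB3, the beta subunit with the highest level per length, had 199 to 590.0 normalized counts in knockout libraries with DMSO and 317 to 657 in control libraries, which overlapped (log2 -0.40, adjusted p = 0.573). Its JQ1 change in knockout clones was -0.37 on the log2 scale (adjusted p = 0.09), and it passed without the library that stood apart (log2 -0.40, adjusted p = 0.0431). CACNB1, the beta subunit of skeletal muscle and brain, fell slightly with JQ1. It had 72.9 to 131 with JQ1 and 93.3 to 191 with DMSO in knockout libraries (log2 -0.41, SE 0.13, adjusted p = 0.0268). Control libraries had 96.0 to 162 with JQ1 and 115 to 187 with DMSO (log2 -0.35, SE 0.13, adjusted p = 0.0471). Libraries of both genotypes overlapped, and the call in control clones was lost under 8 of 22 alternatives, among them without knockout clone 15 (adjusted p = 0.0637) and without control clone 3, 10 or 13 (0.213, 0.206 and 0.073). In knockout clones the call was kept under 17 of 22 alternatives, with a highest adjusted p of 0.208. Among the losses were the fits without knockout clone 15 or 2-1 (0.0825 and 0.117) and without control clone 10 (0.0544). CACNB2, which pairs with the L-type pore in heart, had 3.40 to 66.0 in knockout libraries and 3.79 to 21.0 in control libraries over both treatments, and passed in none of the 5 comparisons. The 66.0 was in the library that stood apart, against 21.4 and 11.7 in its replicates, and the other knockout libraries reached 23.6 at most.

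The gamma subunits found here act mainly as partners of glutamate receptors. CACNG4 varied by clone, with 5.82, 20.3 and 23.2 normalized counts in knockout clones 12, 15 and 2-1 with DMSO, against 2.13, 15.8 and 123 in control clones 3, 10 and 13. It passed in none of the 5 comparisons with all libraries. Its value in the library that stood apart was 198, against 0 and 1.17 in the other replicates, and without that library its fall with JQ1 in knockout clones passed (log2 -1.85, SE 0.29, adjusted p = 0.000744). CACNG2, which did not reach the level for a test, was a transcript of control clone 13, at 28.7 with JQ1 and 62.6 with DMSO, and at most 0.640 as a mean in the other 5 clones.

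**Figure D2:**
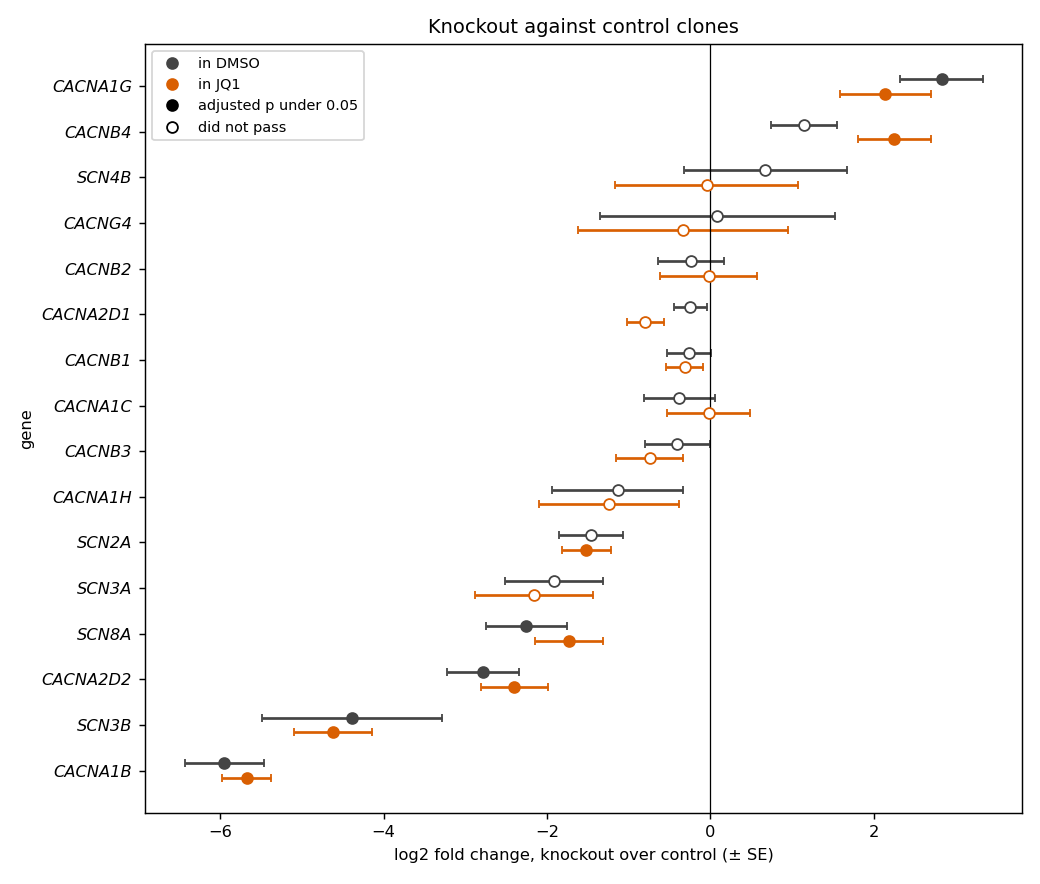
Log2 fold change of knockout over control clones for 16 of the 17 tested channel genes, with DMSO (grey) and with JQ1 (orange). Bars are ± SE over 3 against 3 clones, and filled points passed at an adjusted p under 0.05. CACNA1B stands lowest at -5.95 with DMSO and -5.68 with JQ1, and CACNA1G is highest with DMSO at 2.83.

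SCN2A, the NaV1.2 pore of neuronal axons and the marker named for these genes, fell with JQ1 in every clone and was lower in knockout clones, past the threshold with JQ1 and just outside it with DMSO. It had 111 to 369 normalized counts in knockout libraries with DMSO (median 285), against 514 to 701 in control libraries (median 599). With JQ1 it had 27.2 to 67.3 in knockout libraries (median 49.9), against 96.0 to 168 in control libraries (median 147). Neither pair of groups overlapped, and knockout clone 12 was lowest with either treatment. The log2 fold change was -1.47 with DMSO (SE 0.39, adjusted p = 0.0559) and -1.52 with JQ1 (SE 0.30, adjusted p = 0.0203). With DMSO the difference passed when knockout clone 12 or 15 was left out (adjusted p = 0.0212 and 0.0465), and with JQ1 it was lost when control clone 3, 10 or 13 was left out (0.0738, 0.0603 and 0.0761).

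With all libraries, SCN2A had the lowest JQ1 fold change of the 17 tested channel genes in both genotypes. Without the library that stood apart, SCN4B at -2.51 and SCN3A at -2.30 lay below SCN2A at -2.17 in knockout clones. The log2 change with all libraries was -2.14 in knockout (SE 0.16, adjusted p = 5.51e-05) and -2.09 in control clones (SE 0.16, adjusted p = 5.4e-05). JQ1 and DMSO libraries did not overlap in either genotype, and the 6 clones fell by 1.69 to 2.48 on the log2 scale. The difference between genotypes was -0.05 (SE 0.22, adjusted p = 0.916), and -0.08 without that library.

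SCN3A, the NaV1.3 pore of embryonic neurons, is the neighbour of SCN2A on chromosome 2 in RefSeq, where SCN1A and SCN9A also lie. In knockout libraries it had 2.92 to 77.2 normalized counts with JQ1 (median 25.3), against 36.3 to 246 with DMSO (median 88.3). In control libraries it had 61.7 to 153 with JQ1 (median 115), against 208 to 482 with DMSO (median 387), without overlap. JQ1 lowered it in all 6 clones, with a log2 fold change of -1.97 in knockout (SE 0.15, adjusted p = 6.17e-05) and -1.72 in control clones (SE 0.15, adjusted p = 8.9e-05). Without the library that stood apart, which held 33.3 against 2.92 and 3.50, the change in knockout clones was -2.30. The knockout clones differed widely with DMSO, at 41.1, 85.3 and 221 in clones 12, 15 and 2-1, against 242, 448 and 393 in control clones 3, 10 and 13. The genotype difference did not pass (log2 -1.91, SE 0.60, adjusted p = 0.0893), and did so without knockout clone 2-1 (-2.54, adjusted p = 0.0179). With JQ1 it was -2.16 (SE 0.73, adjusted p = 0.105), and -2.89 without knockout clone 2-1 (0.0309). Leaving out the library that stood apart gave an adjusted p of 0.141. Libraries of the genotypes overlapped with either treatment.

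SCN8A, the NaV1.6 pore of mature axons, was lower in knockout clones and was not called for JQ1. It had 40.0 to 186 normalized counts in knockout libraries with DMSO (median 168), against 373 to 735 in control libraries (median 636). With JQ1 it had 61.9 to 241 in knockout libraries (median 146), against 310.0 to 582 in control libraries (median 462). The genotypes did not overlap with either treatment. On the log2 scale the difference was -2.25 with DMSO (SE 0.50, adjusted p = 0.0302) and -1.73 with JQ1 (SE 0.42, adjusted p = 0.0391), and -1.82 with JQ1 without the library that stood apart (adjusted p = 0.0498). Leaving out control clone 3, 10 or 13 ended the call with DMSO (adjusted p = 0.0578, 0.113 and 0.102) and with JQ1 (0.0638, 0.145 and 0.116). With JQ1 it also ended without knockout clone 12 or 2-1 (0.0508 and 0.0798). The JQ1 change of SCN8A was 0.22 in knockout and -0.30 in control clones (adjusted p = 0.217 and 0.106), and both passed without knockout clone 2-1 (0.43 and -0.30, adjusted p = 0.0186 and 0.0279), that in control clones also without knockout clone 12 (0.0497). The response also differed without knockout clone 2-1 (0.73, adjusted p = 0.0375), against 0.52 with it (SE 0.20, adjusted p = 0.167). Leaving out the library that stood apart gave 0.13 in knockout clones and a response of 0.44 (adjusted p = 0.362 and 0.142).

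The upstream windows of SCN2A (GRCh38.p14, chr2:165239164-165239413, plus strand) and SCN8A (chr12:51590983-51591232, plus strand) are shown because these pores were both lower in knockout clones with JQ1 while, of the pair, SCN2A was called for JQ1 and SCN8A was not. Neither window holds a CANNTG, so neither carries capitals.

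SCN2A: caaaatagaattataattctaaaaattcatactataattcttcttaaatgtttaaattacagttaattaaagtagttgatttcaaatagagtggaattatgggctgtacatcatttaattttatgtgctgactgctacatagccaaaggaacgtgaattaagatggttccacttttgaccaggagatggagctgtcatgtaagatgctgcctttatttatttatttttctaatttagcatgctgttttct

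SCN8A: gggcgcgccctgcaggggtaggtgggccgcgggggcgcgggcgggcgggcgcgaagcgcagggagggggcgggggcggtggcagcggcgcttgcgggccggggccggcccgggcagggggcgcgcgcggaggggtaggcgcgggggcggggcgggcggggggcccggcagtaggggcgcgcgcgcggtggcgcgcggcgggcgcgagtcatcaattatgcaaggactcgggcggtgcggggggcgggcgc

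The SCN2A window is 29.2% G and C and the SCN8A window 85.6%, the lowest and, beside CACNA1C, the highest of the 28 channel windows. Of all windows, 1.32% are as low as SCN2A or lower, and 0.3% as high as SCN8A or higher. Another RefSeq window of SCN2A, at 32.0%, holds 1 CANNTG.

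SCN1A, the NaV1.1 pore of inhibitory neurons, and SCN9A, the NaV1.7 pore of sensory neurons, did not reach the level for a test. SCN1A had 2.05 to 28.4 normalized counts in knockout and 0 to 20.2 in control libraries with DMSO. SCN9A had 0 to 2.16 in knockout and 0 to 4.58 in control libraries with DMSO.

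Among the sodium channel beta subunits, SCN3B, which shapes gating in developing neurons, fell most in knockout clones. It had 0 to 50.8 normalized counts in knockout libraries with DMSO (median 38.0), against 282 to 386 in control libraries (median 358). With JQ1 it had 6.59 to 58.3 in knockout libraries (median 28.2), against 554 to 734 in control libraries (median 668). The genotypes did not overlap with either treatment. Knockout clone 2-1 was lowest, at 1.69 with DMSO against 46.4 and 37.0 in clones 12 and 15. The log2 fold change was -4.39 with DMSO (SE 1.10, adjusted p = 0.0462) and -4.62 with JQ1 (SE 0.47, adjusted p = 0.00146). The call with DMSO was lost without knockout clone 15 (adjusted p = 0.0618) and without control clone 3, 10 or 13 (0.129, 0.128 and 0.127), among 10 of 21 alternatives, and that with JQ1 was kept in all 22.

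SCN3B moved evenly with JQ1 in control clones, by 0.98, 0.92 and 0.94 in clones 10, 13 and 3, and all control libraries with JQ1 lay above those with DMSO. The 3 knockout clones moved by -0.04, -0.21 and 2.40 in clones 12, 15 and 2-1. With 1 spread for both genotypes, the change in control clones was 0.95 (SE 0.43, adjusted p = 0.105), and without knockout clone 2-1 it passed (adjusted p = 0.000341). Without that clone the response also differed between genotypes (-1.07, adjusted p = 0.0212), against -0.23 with it (SE 0.61, adjusted p = 0.858), and -0.12 without the library that stood apart.

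SCN4B, a beta subunit that promotes resurgent current, fell with JQ1. In knockout libraries it had 0 to 69.1 normalized counts with JQ1 (median 7.14), against 7.26 to 166 with DMSO (median 40.3), and in control libraries 3.25 to 35.5 with JQ1 (median 7.42), against 10.6 to 60.7 with DMSO (median 23.2). Libraries overlapped in both genotypes because the clones differed in level, and in knockout clone 12 also through the library that stood apart. Each of the 6 clones fell as a mean of log2 values. As a mean of counts with that library, knockout clone 12 did not fall, at 13.6 with JQ1 and 10.4 with DMSO. In knockout clone 12 the JQ1 value was 38.9 in the library that stood apart, against 1.94 and 0 in replicates 2 and 3. The group changes were -2.01 in knockout (SE 0.41, adjusted p = 0.00446) and -1.29 in control clones (SE 0.41, adjusted p = 0.0321). Without the library that stood apart they were -2.51 in knockout and -1.29 in control clones. The change in knockout clones was -1.34 without knockout clone 2-1 (adjusted p = 0.0115) and, with the call lost, -1.04 with FPKM (0.0552). Neither call was made by edgeR (adjusted p = 0.198 and 0.167) or DESeq2 (0.1 and 0.106), and that in control clones was lost without control clone 3, 10 or 13 (0.163, 0.0889 and 0.0897).

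With JQ1 against DMSO, 8 of the 17 tested genes changed in knockout clones, 1 higher and 7 lower, and 11 when the library that stood apart was left out. Of all genes tested 49.6% changed there, 23.9% higher and 25.7% lower, and 56.4% without that library. In control clones 7 changed, 1 higher and 6 lower, and 8 when it was left out. Of all genes 47.9% changed there, 23.0% higher and 24.9% lower, and 52.4% without it. Both shares of channel genes called (47.1% in knockout and 41.2% in control clones) were near those of all genes. The median log2 fold change of the 17 genes was -0.63 in knockout and -0.35 in control clones, against -0.03 in knockout and -0.01 in control clones over all genes. CACNA1B rose, and CACNA1C, CACNB1, CACNB4, SCN2A, SCN3A and SCN4B fell in both genotypes. Without the library that stood apart, CACNA1B still passed in knockout clones (adjusted p = 0.00216), and the log2 change there was -0.79 for CACNA1C, -0.42 for CACNB1, -0.65 for CACNB4 and -2.17 for SCN2A. Likewise, the difference between knockout and control clones with JQ1 was -1.54 for SCN2A, -4.51 for SCN3B, 2.21 for CACNA1G and 2.28 for CACNB4.

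**Figure D3:**
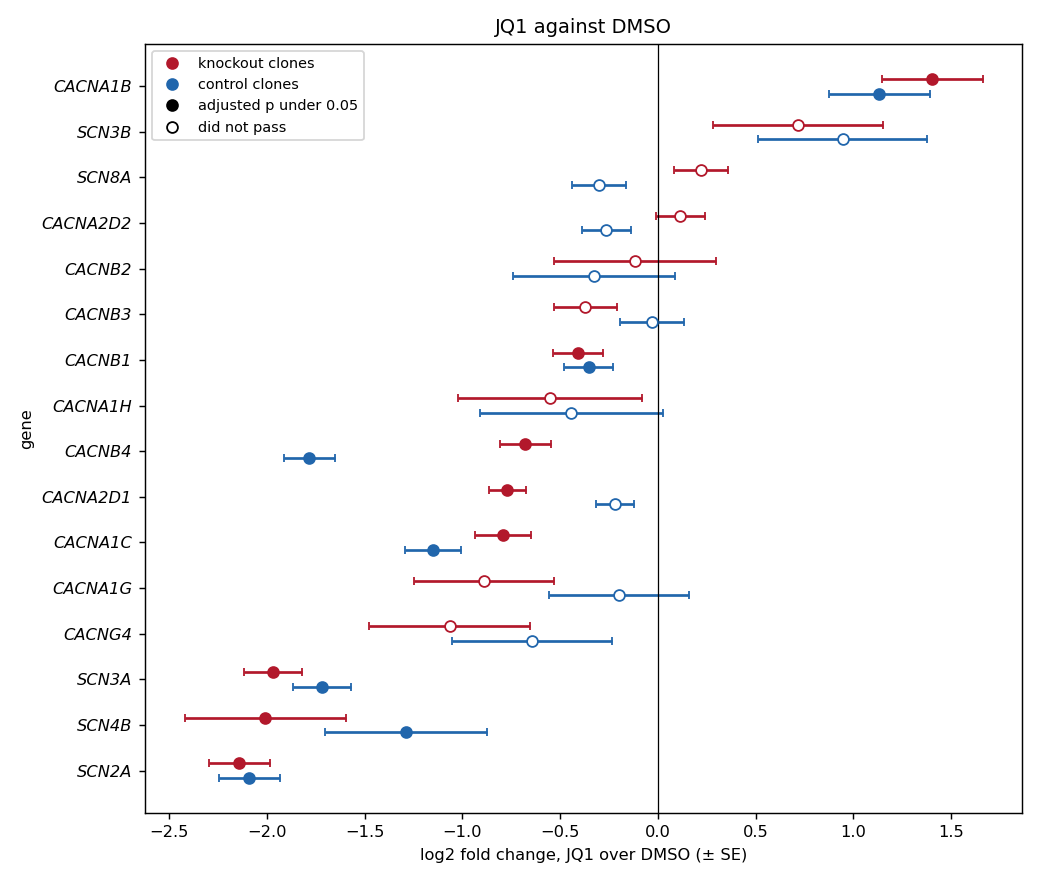
Log2 fold change of JQ1 over DMSO for 16 of the 17 tested channel genes in knockout (red) and control clones (blue). Bars are ± SE from 1 spread over 6 clones, and filled points passed at an adjusted p under 0.05. With all libraries SCN2A lies lowest, at -2.14 in knockout and -2.09 in control clones (in knockout clones SCN4B and SCN3A lay below it without the library that stood apart), and CACNA1B is highest at 1.40 in knockout and 1.13 in control clones.

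**Figure D4:**
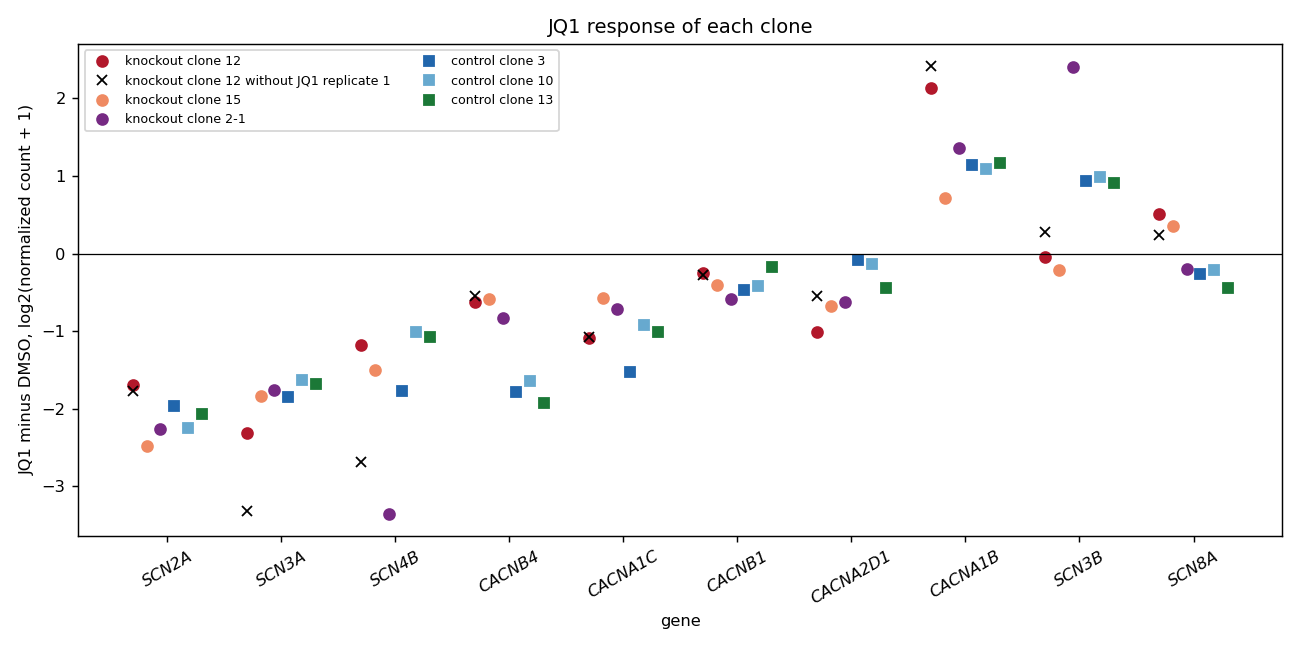
JQ1 minus DMSO difference in log2(normalized count + 1) of each clone for 10 channel genes, with knockout clones as circles, control clones as squares, and crosses for knockout clone 12 without the library that stood apart. SCN3B of knockout clone 2-1 stands at 2.40, away from the other 5 clones, and the CACNB4 points of knockout and control clones do not overlap.

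Levels of different genes were compared per length, as FPKM (read fragments scaled by transcript length and library size). The share of a gene in its subunit class was taken over 40 channel genes in that table, of which 16 were in it alone. Of those 16, SCN7A reached 3.03 FPKM in the library that stood apart and CACNA1A 1.56 in 1 library of control clone 13. An exact permutation test of 3 against 3 clones cannot give less than p = 0.10, so no share can pass at 0.05.

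CACNA1B made up 2.43% ± 2.54 of summed CACNA1 FPKM in knockout clones with DMSO, against 21.5% ± 7.22 in control clones (SD, n = 3 each). With JQ1 its share was 5.57% ± 3.38 in knockout and 56.8% ± 17.1 in control clones. CACNA1C held most of the rest, at 87.6% ± 7.28 in knockout and 71.8% ± 4.36 in control clones with DMSO. With JQ1 it held 82.0% ± 8.76 in knockout and 39.0% ± 16.3 in control clones. The clones of the genotypes did not overlap in any of these, each with an exact permutation p = 0.1. The knockout minus control difference with JQ1 was -51.2 percentage points for CACNA1B and 43.0 for CACNA1C, against -49.7 for CACNA1B and 46.1 for CACNA1C without the library that stood apart. As a mean, CACNA1B was above CACNA1C per length in control clones with JQ1 alone, at 4.75 FPKM, against 3.58 FPKM of CACNA1C. Control clone 13 ran the other way, with 3.81 FPKM of CACNA1B and 5.71 FPKM of CACNA1C.

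Summed FPKM of the SCN alpha genes was 4.50 ± 2.15 in knockout clones with DMSO, against 15.2 ± 3.09 in control clones. SCN8A made up 23.2% ± 4.48 of the alpha sum in knockout and 41.7% ± 4.45 in control clones with DMSO (exact permutation p = 0.1), and SCN2A 44.7% ± 6.34 in knockout and 32.5% ± 8.25 in control clones (exact permutation p = 0.2). In control clones SCN2A stood at 17.2% with JQ1 and 32.5% with DMSO, and SCN8A at 62.6% with JQ1 and 41.7% with DMSO. SCN3B made up 9.14% ± 11.0 of the beta sum in knockout and 29.3% ± 0.773 in control clones with DMSO (exact permutation p = 0.1). Its share with JQ1 was 19.2% ± 11.6 in knockout and 56.5% ± 6.68 in control clones (exact permutation p = 0.1), a difference of -37.3 percentage points, and -36.1 without the library that stood apart. CACNA2D1 held 95.8% ± 2.52 of the alpha2delta sum in knockout and 87.6% ± 3.07 in control clones with DMSO.

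**Figure D5:**
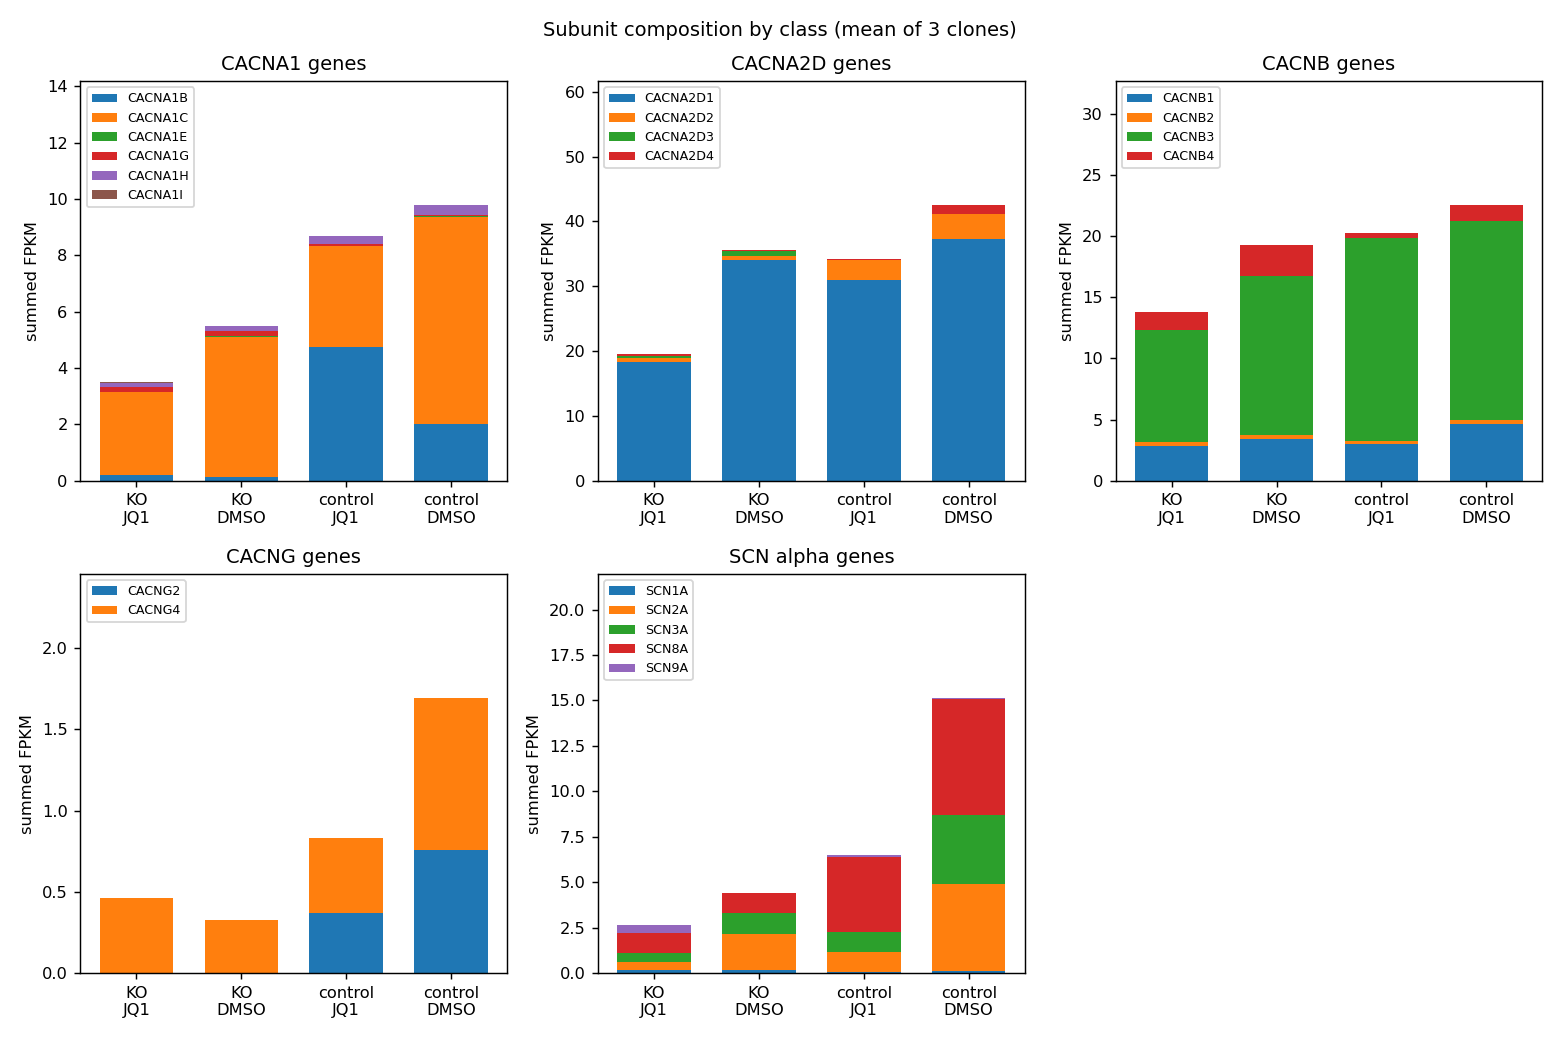
Summed FPKM of the CACNA1, CACNA2D, CACNB, CACNG and SCN alpha genes by subunit class, as stacked means of 3 clones per group (knockout with JQ1, knockout with DMSO, control with JQ1, control with DMSO). Bars use all libraries and only genes that also had normalized counts. Without the library that stood apart, CACNG4 in knockout clones with JQ1 was 0.08 FPKM, against 0.46 as drawn and 0.33 with DMSO. In the same group SCN9A was 0.01 FPKM without it, against 0.41 as drawn. CACNA2D1 went the other way, at 19.9 FPKM without it and 18.4 as drawn. CACNA1B is 4.75 FPKM of the CACNA1 bar in control clones with JQ1 and 0.21 FPKM in knockout clones with JQ1.

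Genes that work with these channels were counted from lists made with earlier results of these data known. Of 15 tested partners of calcium channels, 1 was higher and 5 lower in knockout clones with DMSO, where 6.32% of all genes were higher and 6.23% lower. CABP7, a calcium sensor, fell to 8.01 ± 4.20 in knockout clones, against 2117 ± 1026 in control clones (log2 -7.85, adjusted p = 0.000336). STX1A, a syntaxin of vesicle fusion, was at 55.1 ± 9.30 in knockout and 1362 ± 455 in control clones (log2 -4.56, adjusted p = 0.000336). STAC2, an adaptor of L-type channels, was higher, at 197 ± 72.1 in knockout and 32.9 ± 19.7 in control clones (log2 2.77, adjusted p = 0.0343). Of 13 tested partners of sodium channels, 0 were higher and 6 lower. They included CNTN2, an axonal adhesion molecule (log2 -6.41, adjusted p = 0.00632), and FGF12 and FGF14, intracellular factors that bind the pore (-5.17 and -4.39, adjusted p = 0.0262 and 0.0243). They also included NRCAM and ANK3, which hold channels at the axon initial segment (-4.07 and -2.53, adjusted p = 0.00322 and 0.0102).

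Of the 5 genes listed for the sodium leak channel complex, UNC79 and FAM155B were lower (adjusted p = 0.000254 and 0.000784). UNC79 had 2.39 ± 1.73 in knockout and 934 ± 284 in control clones, and FAM155B had 15.4 ± 9.34 in knockout and 928 ± 311 in control clones. The pore NALCN averaged 209 ± 151 in knockout and 181 ± 69.6 in control clones with DMSO. Of 18 tested genes of calcium signalling, 1 was higher and 4 lower, with NFATC1 at log2 4.27 (adjusted p = 0.00145) and CAMK4 at -4.21 (adjusted p = 0.00076). With JQ1, 1 calcium channel partner was higher and 6 lower in knockout clones, 0 sodium channel partners were higher and 7 lower, and 0 genes of the leak complex were higher and 3 lower, with or without the library that stood apart. Of all genes 6.37% were higher and 5.59% lower. Of the calcium signalling genes 1 was higher and 4 lower, and 1 and 2 without that library. With JQ1 against DMSO, 23.9% of all genes were higher and 25.7% lower in knockout clones, and 23.0% higher and 24.9% lower in control clones. Of the 13 sodium channel partners, 0 were higher and 6 lower in knockout clones (1 and 8 without that library) and 1 higher and 7 lower in control clones (1 and 8). Of the 15 calcium channel partners 4 were higher and 4 lower in knockout and 3 higher and 2 lower in control clones (5 and 4, and 4 and 3, without that library). Of the leak complex 1 was higher and 2 lower in knockout and 0 higher and 1 lower in control clones, with or without that library. Of the 18 calcium signalling genes 9 were higher and 2 lower in knockout and 7 higher and 5 lower in control clones (9 and 2, and 6 and 4, without it). Of 7 tested repressors of neuronal genes, 1 was higher and 1 lower in knockout clones with DMSO, and 1 higher and 0 lower with JQ1. REST, a repressor of neuronal channel genes including SCN2A, had 731 to 1146 normalized counts in knockout libraries with DMSO, against 179.8 to 310.2 in control libraries, without overlap (log2 2.03, SE 0.23, adjusted p = 0.00281). With JQ1 it had 794 to 1663 in knockout and 86.5 to 201 in control libraries (log2 2.86, SE 0.24, adjusted p = 0.000599), and 2.81 without the library that stood apart. REST thus moved with genotype beside the channel genes that were lower in knockout clones, and its part in them was not tested.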

How the data were processed

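RNA-seq libraries of 6 H446 clones were made with a stranded mRNA kit, per the labels' protocols, and processed with cutadapt, STAR and RSEM on hg19, per the submitters' processing notes. The sources used here do not say whether counting used strand, and no tool version is stated, so reads of SCN1A or SCN9A and of overlapping antisense genes may not be told apart. The authors deposited DESeq2-normalized counts (a signal, counts divided by a size factor per library) and RSEM values in FPKM. Whole reads were recovered from the deposited normalized counts (100% of values whole within 1e-06). Columns of other samples numbered 0.

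The channel genes, the lists and the tests were chosen with earlier results of these data known. Clones were the replicates: the 3 libraries of a clone and treatment were averaged as log2(normalized count + 1), and limma 3.58.1 (R 4.3.3) with an expression trend was run over the 15819 genes that held 10 or more normalized counts in 9 or more libraries. For JQ1 the test was on each clone's JQ1 value minus its DMSO value, with 1 spread over 6 clones. Benjamini-Hochberg adjustment of two-sided p-values ran over all genes tested. Folds on this scale understate changes of low genes. Every channel gene could be named, and 1 tested channel gene is not reported here. Full statistics were for those past the threshold, and partner genes were those with the largest log2 fold change past it. Alternatives were other pseudocounts, filters, scalings, FPKM (offset 0.1), single libraries, edgeR 4.0.16 and DESeq2 1.42.0 on recovered reads summed per clone, and leaving out each clone, each replicate number and the library that stood apart. Promoter windows are from RefSeq (GRCh38.p14), and no hg19 coordinates were used. The fits were tested on simulated data. Python 3.11.15 and matplotlib 3.10.9 were used for tables and figures.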

Additional observations from a re-analysis of the deposited data

Results flagged for a closer look

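The JQ1 response of CACNB4 differed between knockout and control clones by 1.11 on the log2 scale (SE 0.18, adjusted p = 0.0313, limma), with falls of 0.58 to 0.82 in the 3 knockout clones and of 1.65 to 1.93 in the 3 control clones. Among the genes examined beside the channels, the response of REST differed by 0.83 (adjusted p = 0.0257), that of NFATC3, a calcium-dependent transcription factor, by 0.50 (adjusted p = 0.0402), and that of SNAP25, a protein of vesicle fusion that binds calcium channels, by -1.24 (adjusted p = 0.0243). Each of these 4 differences was lost with edgeR and when control clone 3, 10 or 13 was left out. Of all 15819 genes, 12 passed this test with edgeR and 0 when any 1 of these control clones was left out. The losses are thus not particular to these 4 genes. That of CACNB4 was also lost with FPKM, without knockout clone 15 and without replicate number 2 or 3. SCN7A, a sodium channel gene found in the FPKM table alone, stood at 3.03 FPKM in replicate 1 of knockout clone 12 with JQ1, and at 0.05 or less in the other 35 libraries. Dixon's test for a single far sample was not run, since each clone and treatment has 3 libraries.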

How the results depend on the processing

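All 28 calls of a channel gene in the 5 comparisons kept their direction under every alternative run, and 14 of them stayed past the threshold under all of them. With DMSO, the count of channel genes differing between genotypes was 5, against 8 with DESeq2 and 2 to 6 when a clone or replicate number was left out. With JQ1 it was 7, against 3 to 7 when one was left out. The count for JQ1 in knockout clones was 8, against 5 with FPKM, 12 without knockout clone 12 and 7 to 10 without another clone or a replicate number. In control clones it was 7, against 4 when any control clone was left out, 5 with edgeR and 6 to 10 otherwise. The response differed for 1 gene, for 2 with DESeq2, for 0 with FPKM (limma, 3 at an unadjusted p under 0.05) and for 0 with edgeR (4 at an unadjusted p under 0.05). Leaving out a clone or a replicate number gave 0 to 3, the 0 without knockout clone 15, control clone 3, 10 or 13, or replicate 2 or 3 (limma, 2 to 3 at an unadjusted p under 0.05). The cause of these shifts was not tested. EdgeR on recovered reads called 1839, 1301, 6054, 6293 and 12 genes in the 5 comparisons (knockout against control with DMSO and with JQ1, JQ1 in control and in knockout clones, the response), against 1985, 1893, 7572, 7845 and 490 with limma, and DESeq2 called 3327, 3054, 6626, 6854 and 1042. The response count of 490 was 1164 without the library that stood apart, 1213, 57 and 886 without knockout clone 12, 15 and 2-1, 669, 129 and 70 without replicate 1, 2 and 3, and 0 without control clone 3, 10 or 13 (limma, 2502, 2385 and 2627 at an unadjusted p under 0.05).

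Single libraries as replicates, without a replicate block, gave 9, 11, 10, 12 and 5 channel genes in the same order, and with the replicate block 9, 11, 10, 11 and 3. Of all genes such fits called 7856, 6803, 9918, 10198 and 4503 without the block and 7465, 6503, 9563, 9875 and 3818 with it. Libraries with the same number did not deviate together (r from -0.22 to 0.12, over 0.1 in 1 of 18 pairs), and 12 of 36 correlated best with their own number. No pairing by number was seen, though this cannot show whether libraries with the same number were handled together. The share of SCN2A in the alpha sum, knockout minus control with JQ1, was -2.36 percentage points, 3.94 with medians of libraries, 6.05 without the library that stood apart, and -4.36 to 7.50 without a replicate number, so its sign rests on that library. Genes under about 10 normalized counts, such as CACNA1G and CACNA1B in 1 genotype each, are limited by depth.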
